A study of Mus musculus with 2 samples.

Results

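Id1, Id2, Id3 and Id4 are the 4 mouse genes of the Id family (inhibitor of DNA binding), and they were taken by gene symbol from the 31053 genes in the count matrices of a single cell RNA-seq experiment on the embryonic eye. All 4 were detected in both libraries. The control library was made from eye cups of Myrf fl/fl embryos at e13.5 and the mutant library from eye cups of Rx>cre Myrf fl/fl embryos of the same age. Myrf is a membrane-associated transcription factor, both groups carry the floxed alleles, and only the mutants carry Rx>cre, a Cre transgene active from the early eye field, the source of both retina and retinal pigment epithelium (RPE). Each library pooled 3 eye cup samples after removal of cornea, lens and optic nerve, and no label ties a cell to an embryo. With 1 library per genotype no difference between genotypes could be tested, so intervals below cover counting error only.

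Id proteins are helix-loop-helix proteins that lack the basic region needed to bind DNA. They pair with the broadly expressed E proteins (Tcf3, Tcf4 and Tcf12) and keep them from joining tissue-specific bHLH factors such as Atoh7 and Neurog2, which drive neuronal differentiation. Id1, Id2 and Id3 are textbook target genes of BMP signalling through SMAD1/5, and in the eye BMP4 is a ligand of the dorsal retina.

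The control library held 63483835 unique molecular identifiers (UMIs, counted transcript molecules) in 6039 barcodes and the mutant library 75228861 UMIs in 6754 barcodes. After filters on gene number, mitochondrial share and doublets 5468 control and 6300 mutant cells were kept, with a median of 11332 and 11154 UMIs per cell. In these cells the 4 genes took 61032 of 61538465 UMIs in control cells and 64367 of 73281142 in mutant cells. Levels are given as UMIs of a gene per 1000000 UMIs of the cells concerned (CPM) with exact Poisson 95% intervals. Because the 3′ protocol counts a molecule once whatever its length, UMIs of different genes were not divided by length, and how well each transcript was captured is unknown. The same barcode sequence occurred in both libraries 72 times, 67 of them among kept cells.

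In mm10 coordinates of the GENCODE annotation Id1 (ENSMUSG00000042745) lies on chr2:152736251-152737410 on the plus strand, Id2 (ENSMUSG00000020644) on chr12:25093799-25097140 on the minus strand, Id3 (ENSMUSG00000007872) on chr4:136143497-136145755 on the plus strand, and Id4 (ENSMUSG00000021379) on chr13:48261228-48266026 on the plus strand. The family is thus spread over 4 chromosomes. Promoter windows from RefSeq (GRCm38.p6) were found for 3 of the 4 genes, each running 5′ to 3′ from 250 bases before to 50 bases after the RefSeq transcription start. The RefSeq starts differ from the gene bounds above, so that the Id4 window lies wholly before the GENCODE start of Id4 and the Id2 and Id3 windows lie inside the bounds of those genes. They are shown because these 3 genes were higher together in dorsal progenitors, described later, and capitals mark GGCGCC and CAGAC, letters known from SMAD-bound elements, on either strand (GGCGCC reads the same on both, and the complement of CAGAC is GTCTG).
Id2, chr12:25096043-25096342, minus strand: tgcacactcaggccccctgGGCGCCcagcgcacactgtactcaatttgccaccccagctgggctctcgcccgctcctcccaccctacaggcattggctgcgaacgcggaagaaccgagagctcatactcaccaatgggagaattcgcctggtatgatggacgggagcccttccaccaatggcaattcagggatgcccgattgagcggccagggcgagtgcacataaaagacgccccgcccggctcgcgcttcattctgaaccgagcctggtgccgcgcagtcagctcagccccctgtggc
Id3, chr4:136143572-136143871, plus strand: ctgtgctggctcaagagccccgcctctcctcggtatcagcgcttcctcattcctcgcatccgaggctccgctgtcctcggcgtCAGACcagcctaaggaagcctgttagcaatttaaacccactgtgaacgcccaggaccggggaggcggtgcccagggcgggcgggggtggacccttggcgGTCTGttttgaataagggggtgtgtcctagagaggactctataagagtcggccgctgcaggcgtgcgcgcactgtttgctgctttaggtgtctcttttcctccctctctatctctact
Id4, chr13:48260866-48261165, plus strand: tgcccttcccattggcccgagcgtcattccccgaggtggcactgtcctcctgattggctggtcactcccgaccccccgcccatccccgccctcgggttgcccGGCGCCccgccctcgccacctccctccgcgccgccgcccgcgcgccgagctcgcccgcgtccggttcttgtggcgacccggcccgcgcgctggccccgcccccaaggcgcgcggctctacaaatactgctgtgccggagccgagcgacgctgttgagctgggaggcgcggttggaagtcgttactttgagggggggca
GGCGCC occurred 1 time in the Id2 window, 1 time in the Id4 window and 0 times in the Id3 window. CAGAC occurred 2 times in the Id3 window, once on each strand, and 0 times in the other windows. Among all 32851 RefSeq windows of the same length 11.9% held GGCGCC and 49.6% held CAGAC, so these matches describe the letters, and whether a factor binds there was not measured.

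Over all kept cells Id3 was the most abundant member by UMIs and Id4 the least. Id3 stood at 813 CPM (806 to 820.0) in the control library and 706 (700.0 to 712) in the mutant. Id2 stood at 88.3 and 87.6 CPM, and Id1 at 82.5 and 76.3. Id4 stood at 8.12 and 8.37 CPM, from 500 and 613 UMIs. At least 1 Id3 UMI was found in 70.9% of control and 68.6% of mutant cells, against 6.71% and 7.32% for Id4.

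Clustering, from which the Id genes and their pathway genes had been left out, gave 29 clusters, of which 24 were named by markers and fell into 14 classes. The names carry the suffix "-like" because they rest on markers alone. The RPE-like class is 1 cluster of 255 control and 153 mutant cells (4.66% and 2.43% of kept cells). Of its defining markers, the pigment cell genes Pmel (6339 and 4979 CPM), Dct (2007 and 1446) and Tyrp1 (313 and 234), the retinoid binding gene Rlbp1 (486 and 279.8) and the transcription factor Mitf (174 and 154) were present in both libraries, Ttr, the leading gene of the cluster, which encodes the thyroxine and retinol carrier transthyretin, was 2444 and 768 CPM, the channel gene Trpm1 was 1328 and 1407, and Rgr was at 0 UMIs in both. Myrf itself stood at 74.5 CPM (155 UMIs) in control and 20.1 CPM (30 UMIs) in mutant RPE-like cells. Whether the counted 3′ ends lie in the deleted part of Myrf is not known here, so this value only partly checks the labels. The 5 clusters left without a name held 889 control (16.3%) and 758 mutant (12%) cells. No cluster met the rule for ciliary margin, optic stalk, pericyte or lens.

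The 4 genes had different orders over the cell classes, ranked here by the mean CPM of both libraries. Id3 was highest in Schwann or neural crest glia-like cells, at 2300 CPM (2132 to 2477) in 22 control cells and 2078 (1961 to 2200) in 38 mutant cells. Every one of these glia-like cells held an Id3 UMI. Retinal progenitor-like cells came next (1032 and 1034 CPM), then periocular mesenchyme-like cells (1002 and 907), and the values of the 2 libraries did not overlap between these 3 neighbours. Muscle-like cells (714 and 838) and endothelium-like cells (769 and 755) overlapped. Surface ectoderm-like cells (724 and 439) and RPE-like cells (666 and 487) overlapped each other, and melanocyte-like cells (438 and 452) lay below RPE-like cells and overlapped the lower end of the surface ectoderm-like cells. Neurogenic retinal precursor-like cells followed at 198 and 121 CPM. Amacrine or horizontal cell-like cells (49.3 and 118), photoreceptor precursor-like cells (45.2 and 83.1) and retinal ganglion cell-like cells (89.8 and 33.7) overlapped in turn, ganglion cell-like cells overlapped macrophage-like cells (48.1 and 45.6), and red blood cell-like cells (19.6 and 35.4) lay below macrophage-like cells and overlapped ganglion cell-like cells.

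Id1 had another order. By the mean of both libraries neurogenic retinal precursor-like cells came first, at 182 CPM (167 to 198) in control cells and 148 (135 to 161) in mutant cells, but muscle-like cells were higher in the mutant library, and the precursor-like cells moved to rank 2 under 4 of 6 alternatives. Muscle-like cells (140.5 and 168) and surface ectoderm-like cells (144 and 148) had intervals that overlapped those of the precursor-like cells in each library. Retinal progenitor-like cells (137 and 144) overlapped the muscle-like and surface ectoderm-like cells, but their control interval (131 to 142) lay below that of the precursor-like cells. Endothelium-like cells stood apart below this group, at 87 and 82.2 CPM. Schwann or neural crest glia-like cells (52.9 and 60.1) and periocular mesenchyme-like cells (51.7 and 59.5), which were among the 3 highest classes for Id3, were in the middle of the order for Id1. RPE-like cells held 29.8 and 12 CPM of Id1, close to melanocyte-like cells at 16.3 and 24.4.

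By the same mean Id2 was first in melanocyte-like cells, with 163 CPM (137 to 192) in control cells and 137 (110.5 to 169) in mutant cells. Retinal progenitor-like cells (122 and 139.6) overlapped them and were the higher class in the mutant library, periocular mesenchyme-like cells stood below at 98.7 and 109, and RPE-like cells overlapped the mesenchyme at 109 and 66.3. Surface ectoderm-like cells, high for Id1 and Id3, held 28.2 and 59.4 CPM of Id2. Id4 never passed 20 CPM in a named class. By the mean of both libraries it was first in retinal progenitor-like cells, at 13.4 CPM (11.9 to 15.2) from 260 UMIs and 16.8 (15 to 18.7) from 322 UMIs, and overlapped there with the glia-like cells (16.5 and 7.07 CPM from 5 and 4 UMIs), which were higher in the control library. RPE-like cells held 4 and 5 Id4 UMIs.

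**Figure D1:**
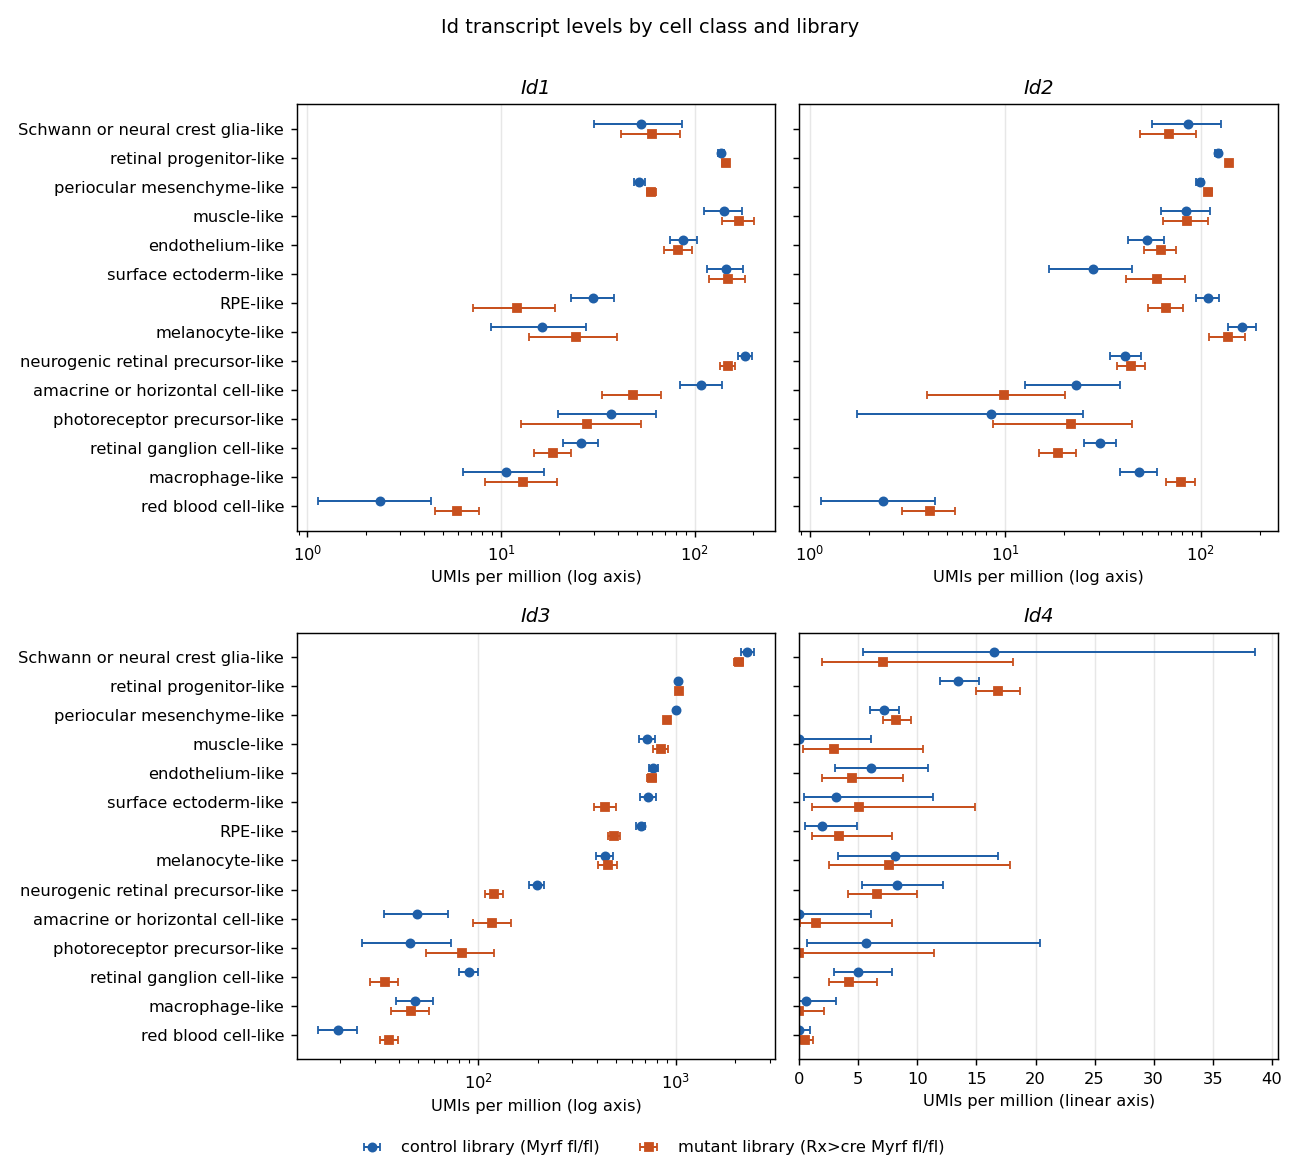
CPM of each Id gene (log axis for Id1, Id2 and Id3, linear for Id4) in 14 cell classes, with circles for the control library, squares for the mutant library and bars for exact Poisson 95% intervals. By the mean of both libraries Id3 is highest in glia-like cells (2300 and 2078), Id1 in neurogenic retinal precursor-like cells (182 and 148), Id2 in melanocyte-like cells (163 and 137) and Id4 in retinal progenitor-like cells (13.4 and 16.8), but in 1 library another class is higher for Id1 (muscle-like, mutant, 168), Id2 (retinal progenitor-like, mutant, 139.6) and Id4 (glia-like, control, 16.5).

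Free RNA gives UMIs in droplets whose cell does not express a gene. The class of red blood cell-like cells was taken as the background, though whether these cells make Id transcripts was not tested. They held 0.399 Id3 UMIs per cell in control cells and 0.745 in mutant cells at median depths of 22476 and 22741 UMIs. Macrophage-like cells (0.694 and 0.6 per cell) and ganglion cell-like cells (0.835 and 0.284) were above that in control cells and below it in mutant cells. An Id3 UMI was found in 24.5% of control and 18.5% of mutant red blood cell-like cells. In each library 1 such cell held much of the Id3 of the class, 20.5% in the control and 21.5% in the mutant. This background may thus hold more than free RNA. Per UMI the mutant macrophage-like cells (45.6 CPM, 36.2 to 56.7) and ganglion cell-like cells (33.7, 28.5 to 39.5) had intervals that overlapped that of red blood cell-like cells (35.4, 31.8 to 39.2), so no Id3 above the background is read from them. Retinal progenitor-like cells held 12.2 and 11.3 Id3 UMIs per cell and RPE-like cells 5.43 and 4.76. For Id1 the red blood cell-like cells held 0.0481 and 0.125 UMIs per cell and RPE-like cells 0.243 and 0.118, so mutant RPE-like cells held no more Id1 per cell than the background. Per UMI their level of 12 CPM (7.14 to 19) overlapped that of mutant red blood cell-like cells (5.95, 4.55 to 7.64), in cells with a median of 3853 UMIs. For Id2 the corresponding values were 0.0481 and 0.0862 against 0.886 and 0.647.

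When every cell was thinned to 3000 UMIs, 74.3% (71.9 to 76.5, exact binomial) of 1453 control and 75.9% (73.7 to 78) of 1531 mutant retinal progenitor-like cells held an Id3 UMI, against 6.18% and 6.3% of red blood cell-like cells. The thinned mutant shares were 9.45% (6.42 to 13.3) in ganglion cell-like cells and 8.64% (3.55 to 17) in macrophage-like cells, and both intervals overlapped that of the red blood cell-like cells (4.15 to 9.09). Before thinning the progenitor shares were 83.9% and 85.6%. Id1 was found in 25.5% and 27.3% of thinned progenitor-like cells and Id2 in 25.1% and 28.3%. Both Id1 and Id3 were found in 21.8% of control progenitor-like cells, where the product of the separate shares is 18.9%, and in 24.3% of mutant ones against a product of 20.7%. Id2 and Id3 together were found in 22% and 25.3%, against products of 18.7% and 21.5%. The Id genes were thus found together somewhat more often than the product in progenitor-like cells, which is given as a description since cells of 1 library share its preparation. None of the 4 genes was found in 19.3% and 18.5% of thinned progenitor-like cells.

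Neurogenic retinal precursor-like cells, marked by the bHLH genes Atoh7 and Neurog2, held far less Id3 than retinal progenitor-like cells. The log2 difference was -2.38 (-2.50 to -2.26) in control cells and -3.10 (-3.25 to -2.96) in mutant cells. Id2 was also lower, by a log2 difference of -1.56 (-1.85 to -1.31) and -1.66 (-1.92 to -1.43). Id1 did not follow them. It was 0.42 higher on the log2 scale (0.28 to 0.55) in control precursor-like cells, and in the mutant the difference of 0.04 (-0.10 to 0.18) had an interval that spans 0.

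The make-up of the Id UMIs therefore differed between these classes. In retinal progenitor-like cells Id3 gave 79.1% and 77.5% of the Id UMIs and Id1 10.5% and 10.8%, so that 7.55 and 7.2 Id3 UMIs were counted per Id1 UMI. In neurogenic retinal precursor-like cells Id3 gave 46.1% and 37.8% and Id1 42.4% and 46.3%, and the ratio was 1.09 and 0.816. In red blood cell-like cells, whose UMIs of these genes are taken as free RNA, the ratio was 8.3 from 83 Id3 and 10 Id1 UMIs in control cells and 5.95 from 363 and 61 in mutant cells. In retinal ganglion cell-like cells Id1 was low too. The log2 difference from neurogenic precursor-like to ganglion cell-like cells was -2.81 (-3.15 to -2.50) in control cells and -2.98 (-3.35 to -2.66) in mutant cells. Amacrine or horizontal cell-like cells, another early-born class, held 108 and 47.7 CPM of Id1 from 66 and 34 UMIs.

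**Figure D2:**
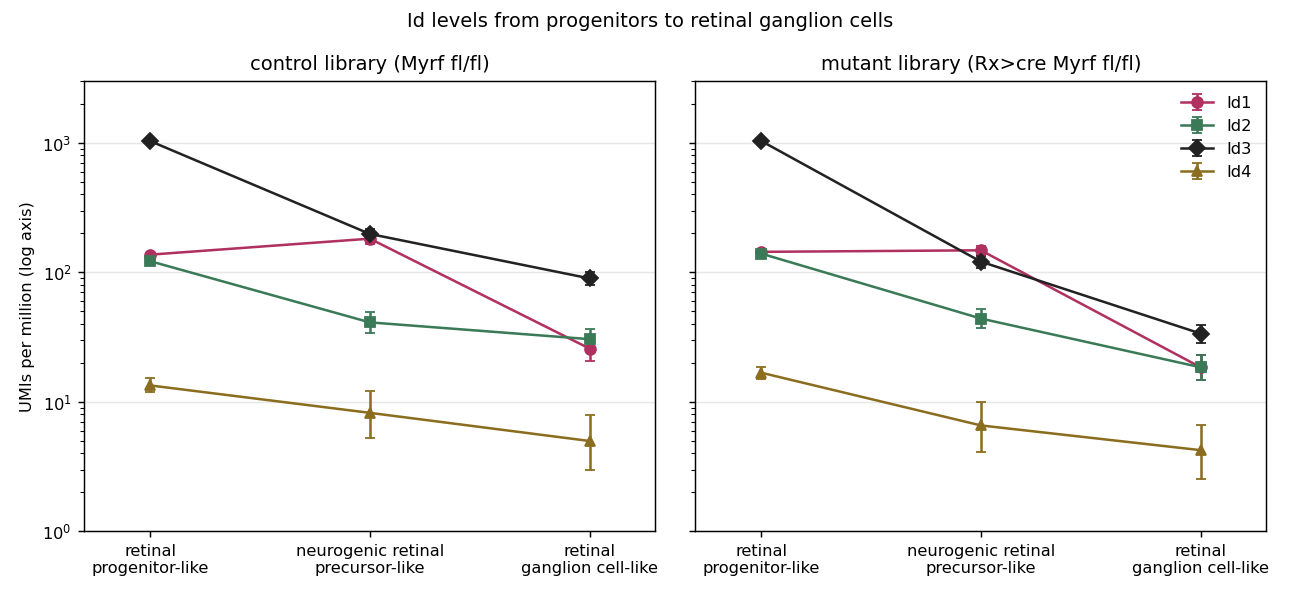
CPM (log axis) of the 4 Id genes in retinal progenitor-like, neurogenic retinal precursor-like and retinal ganglion cell-like cells, with the control library on the left, the mutant library on the right and bars for exact Poisson 95% intervals. Lines join the values of 1 gene. Id3 is 1032 and 1034 in progenitor-like cells and 198 and 121 in precursor-like cells, while Id1 stays between 137 and 182 and is low in ganglion cell-like cells (25.8 and 18.5).

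Among the progenitor-like clusters, all 4 genes were highest in cluster 6, led by Fgf15 and Sfrp2 along with cell cycle genes. Id3 there was 1275 CPM in control cells and 1138 in mutant cells, Id1 191 and 182, Id2 151 and 171, and Id4 20.1 and 27.6. For Id1, Id2 and Id3, clusters 4 and 5 were lowest, with 562 and 655 CPM of Id3 in cluster 4 and 567 and 789 in cluster 5. Depth differed among these clusters, with a median of 19613 UMIs per cell in cluster 6 against 3899.5 in cluster 4 and 4768.5 in cluster 5, and its part in the difference was not tested.

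All 4 members of the family were higher in dorsal than in ventral progenitor-like cells in both libraries. Progenitor-like cells with a Tbx5 UMI and no Vax2 UMI were called dorsal (42 control and 55 mutant cells) and those with Vax2 and no Tbx5 ventral (797 and 756 cells). Tbx5 and Vax2 are transcription factors that mark the dorsal and the ventral retina. Id3 was 2187 CPM (2085 to 2294) in dorsal and 749 (733 to 765) in ventral control cells, a log2 difference of 1.55 (1.47 to 1.62). In the mutant it was 1843 (1752 to 1937) and 763 (746 to 779), a log2 difference of 1.27 (1.19 to 1.35). The intervals of dorsal and ventral cells did not overlap for Id3 in either library.

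Id1 was 225 CPM in dorsal and 103 in ventral control cells and 221 and 105 in the mutant, with log2 differences of 1.14 (0.89 to 1.36) and 1.09 (0.85 to 1.31). Id2 was 160.5 and 95.9 CPM in control cells and 203 and 106 in mutant cells, with log2 differences of 0.75 (0.46 to 1.01) and 0.95 (0.70 to 1.18). Id4 was 33.4 CPM from 26 UMIs and 8.08 from 95 UMIs in the control, a log2 difference of 2.09 (1.36 to 2.68). In the mutant it was 22.9 from 19 UMIs and 13.3 from 143, a difference of 0.84 whose interval (0.00 to 1.47) touches 0. Dorsal and ventral cells had median depths of 17685 and 14984 UMIs in control cells and 13411 and 13852 in mutant cells. With 5 dorsal and 5 ventral genes in place of 1 each, the dorsal groups grew to 321 and 441 cells, and the log2 differences of Id3 were 1.39 and 1.24 and those of Id4 1.82 and 1.31. Tbx5, which alone told dorsal cells in the first split, and Tbx2, used in the second, both belong to the list of BMP responsive genes used below, so the dorsal groups were not chosen independently of that pathway.

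**Figure D3:**
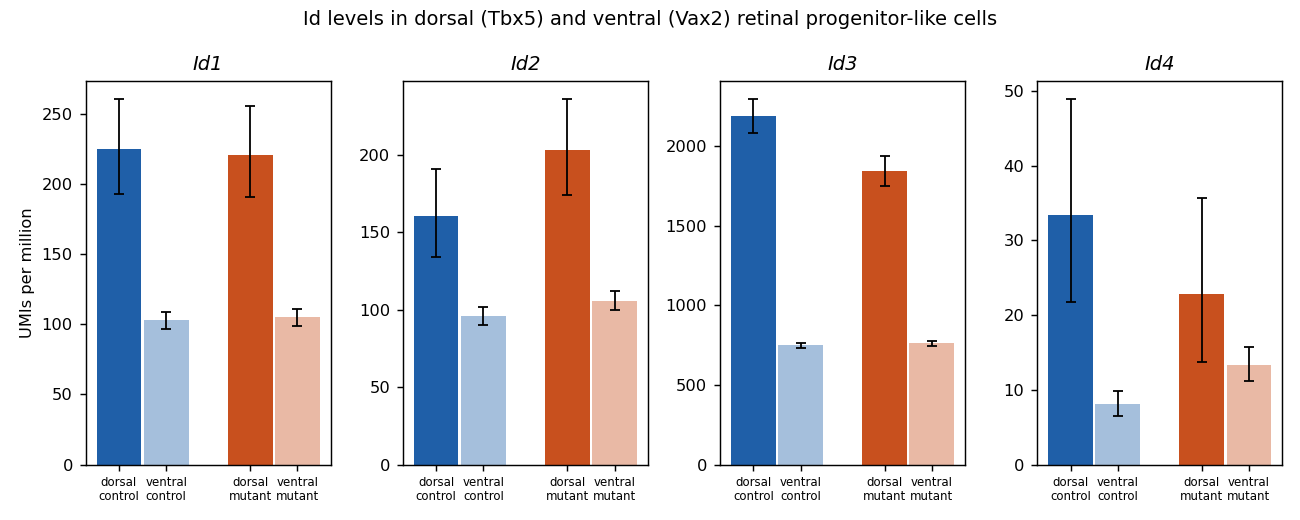
CPM of each Id gene in dorsal (Tbx5, full colour) and ventral (Vax2, pale) retinal progenitor-like cells of the control (blue) and mutant (orange) library, with bars from 0 and exact Poisson 95% intervals. The dorsal bar is the higher one for all 4 genes in both libraries, with 2187 against 749 for Id3 in control cells and 1843 against 763 in mutant cells.

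Outside the retina the periocular mesenchyme-like clusters differed most in Id2 and Id4. Cluster 12, led by Cldn11 and Sox9, held 169 and 158 CPM of Id2 and 24.1 and 31.5 CPM of Id4, and both values of Id4 were above those of every named class as a whole. Cluster 10, led by Pgf, Aldh1a2 and Six2, held as much Id3 (1315 and 1185 CPM, against 1276 and 1145 in cluster 12) but only 28 and 30.1 CPM of Id2. Cluster 11, with the tendon factor Scx, was lowest for Id3 at 547 and 501 CPM. The unnamed cluster 16, led by Fmo1 and Spp1 and with many mesenchyme and some pericyte markers, held 1930 CPM (1869 to 1992) and 1737 (1680 to 1796) of Id3, the highest after the glia-like cells.

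Between glia-like and melanocyte-like cells, both derivatives of the neural crest, Id3 and Id2 differed in opposite directions. Id3 was lower in melanocyte-like cells, by a log2 difference of -2.39 (-2.58 to -2.21) in control cells and -2.20 (-2.39 to -2.02) in mutant cells. Id2 was higher, by 0.88 (0.31 to 1.58) and 0.97 (0.44 to 1.58). RPE-like cells, pigmented cells of neuroepithelial origin, held less Id2 than melanocyte-like cells, with differences of -0.59 (-0.89 to -0.27) and -1.05 (-1.48 to -0.62).

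The comparison of genotypes in RPE-like cells asked whether the 3 measurable Id genes differed in the cell class that expresses Myrf. A log2 ratio of mutant over control of at least 0.5 in size counts as past the fold, among genes with at least 20 UMIs over both libraries, and Id4 with its 4 and 5 UMIs was not compared. Id1 had 62 UMIs in 255 control cells and 18 in 153 mutant cells, that is 29.8 CPM (22.8 to 38.2) and 12 (7.14 to 19), giving a log2 ratio of -1.25 (-2.15 to -0.53). Id2 had 226 and 99 UMIs, or 109 CPM (94.9 to 124) and 66.3 (53.9 to 80.7), a log2 ratio of -0.70 (-1.07 to -0.37). Id3 had 1385 and 728 UMIs, or 666 CPM (631 to 702) and 487 (452 to 524), a log2 ratio of -0.45 (-0.58 to -0.32). All 3 were lower in the mutant library and the intervals of their levels did not overlap, but only Id1 and Id2 were past the fold. Of 9713 genes compared in this class 14.0% were lower past the fold, 8.39% were higher past it, and the median ratio was -0.04. As low as Id1 were 1.62% of genes, as low as Id2 7.36% and as low as Id3 16.2%. Without the barcodes found in both libraries, a setting chosen after seeing the data, the 3 ratios were -1.24, -0.72 and -0.44. The Id1 ratio was 0.02 when cells over 20000 UMIs were left out (33 and 15 UMIs). Subtracting the mean UMIs per red blood cell-like cell from each RPE-like cell left no mutant Id1 UMI. That subtraction repeats the comparison per cell given above and is no separate check. Nor does it describe how the mutant UMIs were spread, since 1 cell held 44.4% of them. Which genes were past the fold also changed with the setting, since Id2 was at -0.46 and Id3 at -0.82 with a mitochondrial limit of 5%. Id2 was at -0.47 with the mean of shares per cell. Id3 was at -0.65 in male cells, -0.58 in female cells and -0.58 with free RNA subtracted. Without the cell with most Id3 UMIs it was at -0.50, on the limit.

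Few cells carried the Id1 count. The 1 cell with most Id1 UMIs held 44.4% of them in the mutant and 19.4% in the control, while the top cell held 9.07% and 5.2% for Id3. After thinning to 3000 UMIs, which kept 132 control and 80 mutant cells, Id3 was found in 72.7% (64.3 to 80.1) of control and 53.8% (42.2 to 65) of mutant RPE-like cells. Without thinning the shares were 69.4% and 69.3%. Id2 was found in 22% (15.2 to 30) and 12.5% (6.16 to 21.8) of thinned cells, and in 33.7% and 32.7% without thinning. Thinned shares of Id1 were 5.3% and 6.25%, against the direction of its CPM. At 1500 UMIs they were 5% and 0%, with that direction, so no order is read from them. Among the thinned cells of this class, 22% (control) and 38.8% (mutant) held no UMI of the family.

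Id3 and Id2 levels were lower in the mutant library in each of 6 groups of RPE-like cells. In cells told as female by Xist Id3 was 775 CPM (699 to 858) in control cells and 517 (432 to 613) in mutant cells, and in cells told as male by Y-linked transcripts 644 (594 to 697) and 409 (366 to 455). In cells with a mitochondrial share of up to 5% it was 963 and 544 CPM, and in those above 554 and 425. In cells under 5000 UMIs it was 617 (508 to 743) and 444 (334 to 577), where the intervals overlap, and in deeper cells 670.1 and 491. Id2 was 119.9 and 39.4 CPM in female and 99.4 and 68.8 in male cells. The female cells numbered 42 and 15 and the male cells 64 and 45, and the others were assigned to neither sex.

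**Figure D4:**
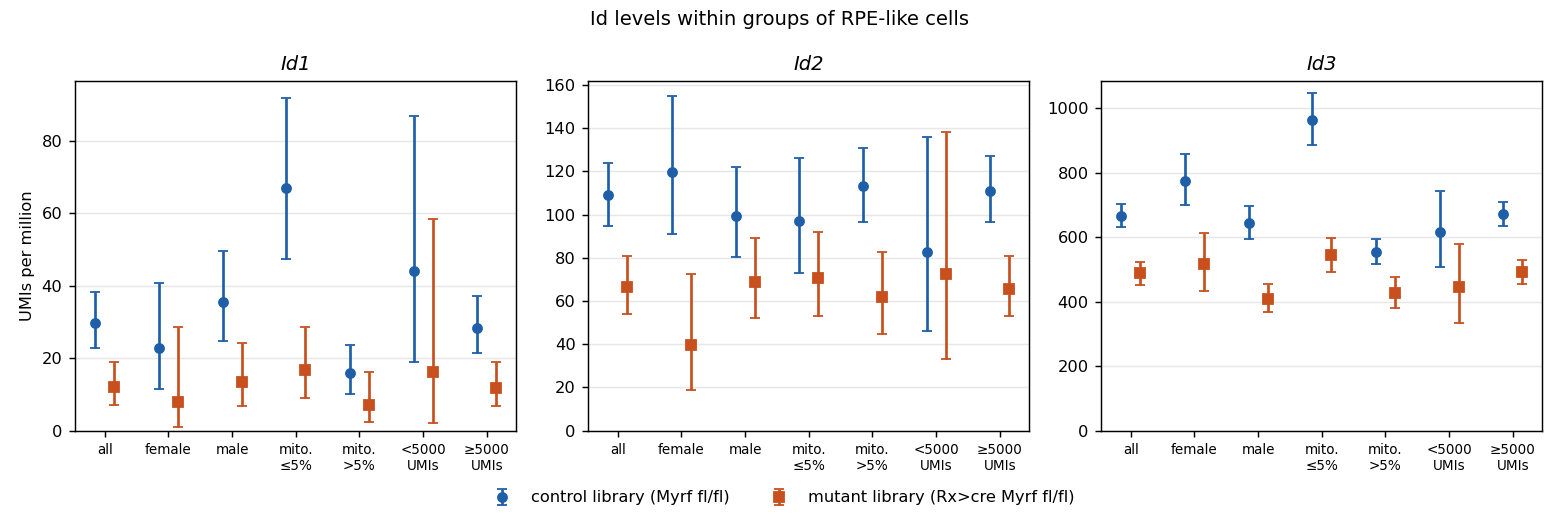
CPM of Id1, Id2 and Id3 in all RPE-like cells and in groups of them by sex, mitochondrial share and UMIs per cell, with circles for the control and squares for the mutant library and exact Poisson 95% intervals. The mutant value is below the control value in every group, with 666 and 487 for Id3 over all cells, but the intervals overlap for Id1 and Id2 in several groups.

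Markers of other cell types also differed between the libraries within the RPE-like class. Of 17 marker lists of other cell types, the largest sum was that of 10 surface ectoderm markers, led by Krt18, at 2183 CPM in control cells and 1560 in mutant cells with 3 and 5 at 0. The 10 neurogenic retinal precursor markers summed to 282 CPM in control cells and 551 in mutant cells, with none at 0 and Atoh7 the most abundant. The 12 retinal ganglion cell markers, led by Rbpms, went the other way, at 287 and 135 CPM with 0 and 1 at 0. The 11 retinal progenitor markers, led by Sfrp2, summed to 1150 and 888 CPM with none at 0. The 10 red blood cell markers, led by Hbb-y, summed to 987 and 1390 CPM with 1 at 0 in each library, and the 17 periocular mesenchyme markers, led by Dcn, to 258 and 261 with 0 and 1 at 0. Melanocyte markers, led by Mlana, summed to 1155 and 959 CPM, lens markers, led by Cryab, to 497 and 551, photoreceptor precursor markers, led by Otx2, to 371 and 294, ciliary margin markers, led by Wls, to 348 and 341, and the other 7 lists to 217 CPM or less each in both libraries. Krt18, Mlana and Cryab are also among the leading genes of the RPE-like cluster itself, and the study used OTX2 to mark RPE cells. The surface ectoderm, melanocyte, lens and photoreceptor precursor sums are thus led by genes of RPE cells. They are not read as a measure of those other cell types. The part of the sums in the Id ratios was not tested.

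In the other classes Id ratios ranged as widely as in RPE-like cells. In retinal progenitor-like cells, which share the Rx>cre lineage, Id3 had a ratio of 0.00 (-0.03 to 0.03), Id1 one of 0.07 (-0.00 to 0.15), Id2 of 0.19 (0.11 to 0.27) and Id4 of 0.32 (0.08 to 0.56). None of the 4 was past the fold there, where 4.62% of 12892 genes were lower and 2.63% higher past it. The clusters of this class differed, with Id3 ratios of 0.48 (0.37 to 0.58) in cluster 5 and -0.16 (-0.21 to -0.12) in cluster 6, and Id1 ratios of 0.51 (0.10 to 0.96) in cluster 4, 0.64 (0.33 to 0.97) in cluster 5 and -0.07 (-0.18 to 0.04) in cluster 6, so the value of 0.00 for Id3 pools clusters of opposite sign. Periocular mesenchyme-like cells had ratios of 0.20 for Id1, 0.15 for Id2 and -0.14 for Id3. These too pool clusters of opposite sign, with Id1 at 0.52 (0.33 to 0.71) in cluster 1 and -0.55 (-1.01 to -0.08) in cluster 11, and Id3 at 0.10 (0.04 to 0.16) in cluster 1 and -0.19 (-0.24 to -0.14) in cluster 3.

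Ganglion cell-like cells had the lowest Id3 ratio, -1.41 (-1.70 to -1.13), from 324 and 151 UMIs, and an Id2 ratio of -0.71 (-1.15 to -0.29), in a class where 7.27% of genes were lower past the fold. The mutant Id3 level is the one that overlapped the background above. The top cell held 17.3% of the Id3 UMIs of this class in the control and 7.95% in the mutant. Thinned shares of these cells with Id3 were 12.4% (8.56 to 17.3) and 9.45% (6.42 to 13.3), and the intervals overlap. In neurogenic retinal precursor-like cells Id3 had a ratio of -0.71 (-0.90 to -0.53), with 8.78% of genes lower past the fold, and Id1 one of -0.30 (-0.48 to -0.12). In surface ectoderm-like cells Id3 had a ratio of -0.72 (-0.95 to -0.50) where 15.7% of genes were lower past the fold, and Id2 one of 1.04 (0.22 to 1.98) where 11.4% were higher. The Id2 ratio rested on 18 control and 35 mutant UMIs, with 22.2% and 25.7% in the top cell, and was 0.96 without these cells. Thinned shares of surface ectoderm-like cells with Id2 went the other way, at 18.9% (7.96 to 35.2) and 14.3% (4.03 to 32.7), with overlapping intervals. The median depth of that class was 3223 UMIs in control cells and 1665 in mutant cells.

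Amacrine or horizontal cell-like cells had an Id1 ratio of -1.17 (-1.83 to -0.57) and an Id2 ratio of -1.14 (-2.78 to 0.17), with 11.0% of genes lower past the fold, and an Id3 ratio of 1.23 (0.64 to 1.91) with 10.1% higher. The control cell with most Id1 UMIs held 30.3% of them. The Id3 ratio rested on 30 control and 84 mutant UMIs, with 16.7% and 19% in the top cell, and was 1.17 without these cells. Thinned shares of cells with Id3 were close, at 16.4% (7.77 to 28.8) and 17.9% (9.61 to 29.2). Macrophage-like cells had an Id2 ratio of 0.71 (0.32 to 1.12) with 10.1% of genes higher past the fold. Melanocyte-like cells had an Id1 ratio of 0.57 (-0.54 to 1.73) with 9.07% higher, and photoreceptor precursor-like cells an Id3 ratio of 0.84 (-0.07 to 1.87) with 10.1% higher, where 1 mutant cell held 81.5% of the Id3 UMIs. In red blood cell-like cells the ratios of Id1, Id2 and Id3 were 1.22, 0.69 and 0.84, but the median of all genes there was 0.40 and 41.8% were higher past the fold. Over the 13 other classes the median ratio was 0.07 for Id1 and -0.03 for Id3, and over the 12 with enough UMIs 0.12 for Id2.

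**Figure D5:**
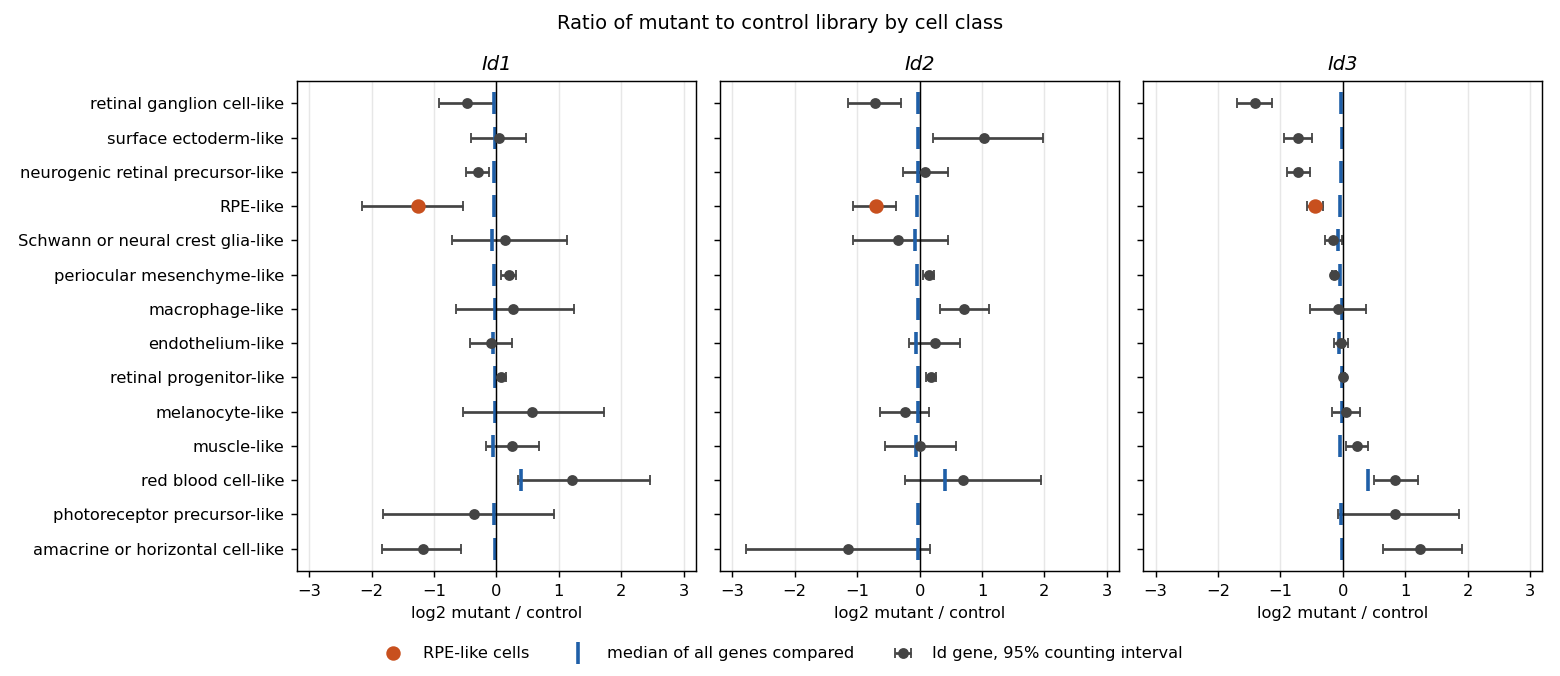
Log2 ratio of the mutant over the control library for Id1, Id2 and Id3 in each cell class with enough UMIs (dots, with exact 95% counting intervals), with the RPE-like cells in orange and the median of all genes compared in that class as a blue line. The RPE-like values are -1.25, -0.70 and -0.45, and the Id3 ratios run from -1.41 in ganglion cell-like cells to 1.23 in amacrine or horizontal cell-like cells.

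The pathway around the Id genes was described in RPE-like cells from lists of its parts, with members under 100 UMIs named, after their values were seen, where they were past the fold. The counts stand against 14.0% of all 9713 genes lower and 8.39% higher past it. Of 14 BMP and related ligands 5 had enough UMIs, of which 4 were lower and 1 higher, 2 were past the fold (both lower), and the median ratio was -0.48 against -0.04 over all genes. Bmp4, the dorsal ligand, was highest of all classes in RPE-like cells, at 53.3 CPM (111 UMIs) in control cells and 34.8 (52 UMIs) in mutant cells, a log2 ratio of -0.60 (-1.12 to -0.13). The other one past the fold was Bmp2, at -1.47 (-2.60 to -0.62) from 49 and 12 UMIs. Bmp7 was 76.9 and 68.9 CPM (-0.15, -0.53 to 0.21), Gdf11 34.1 and 24.1 (-0.48, -1.12 to 0.10), and Tgfb2, a TGF-beta ligand, 54.8 and 75 (0.45, 0.06 to 0.84).

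Of 12 BMP and TGF-beta receptors 8 were compared, 4 lower and 4 higher, with 1 past the fold on each side (against 14.0% and 8.39% of all genes) and a median of -0.10. Those were Bmpr2, a type II receptor, at -0.58 (-1.35 to 0.11) and Bmpr1b, a type I receptor, at 0.74 (-0.19 to 1.71), and both intervals span 0. Among the others the type I receptors Bmpr1a and Tgfbr1 had ratios of -0.21 (-0.77 to 0.31) and -0.45 (-1.04 to 0.08), and the type II receptor Acvr2b one of 0.35 (-0.01 to 0.71). Of 6 SMADs 5 were compared, 3 lower and 2 higher, of which 1 was higher past the fold (8.39% of all genes), with a median of -0.08. That gene was Smad1 at 0.69 from 18 and 21 UMIs, with an interval (-0.28 to 1.69) that spans 0, and Smad4, their common partner, had a ratio of -0.08 (-0.56 to 0.38). Of 16 inhibitors 9 were compared, 4 of them lower and 1 higher past the fold (14.0% and 8.39% of all genes), with a median of -0.33, and the most abundant, Fstl1, was 143 and 145 CPM (0.03, -0.23 to 0.28). The lower ones were Wfikkn2 at -1.88 (-3.31 to -0.91), Fst, which encodes the activin antagonist follistatin, at -0.81 (-1.63 to -0.11), Nog, which encodes the BMP antagonist noggin, at -0.71 (-2.01 to 0.33) and the inhibitory SMAD gene Smad7 at -0.66 (-2.05 to 0.44). The higher one was Bambi, a pseudoreceptor, at 0.80 (-0.03 to 1.67). Of 11 other BMP responsive genes 4 were compared, 2 lower and 1 higher past the fold, again beside 14.0% and 8.39% of all genes, and with so few members compared nothing is read from these counts. The 3 were Tbx2 at -1.84 (-3.78 to -0.67), Lef1 at -1.18 (-3.15 to 0.11) and Atoh8 at 0.58 (-0.66 to 1.86).

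The E proteins, the partners of the Id proteins, were not past the fold. Of them, Tcf3, Tcf4 and Tcf12 were 50.9, 64.9 and 52.9 CPM in control RPE-like cells and 53.5, 72.9 and 70.3 in mutant ones, with ratios of 0.08 (-0.37 to 0.50), 0.17 (-0.21 to 0.54) and 0.41 (0.01 to 0.81). Of 14 tissue-specific bHLH factors 5 were compared, 3 of them higher and 1 lower past the fold, beside 8.39% and 14.0% of all genes. Atoh7, the proneural factor needed for ganglion cells, was 124 CPM (259 UMIs) in control and 359 (536 UMIs) in mutant RPE-like cells, a ratio of 1.52 (1.31 to 1.75). In retinal progenitor-like cells its ratio was 0.06 (-0.05 to 0.16). Atoh7 is also the most abundant of the neurogenic retinal precursor markers (9196 and 9188 CPM in that class), whose sum in RPE-like cells went from 282 to 551 CPM as given above, and the part of such cells or their RNA in its ratio was not tested. The others higher past the fold were Neurog2, also one of these markers, at 2.88 from 6 and 36 UMIs, and the tendon factor Scx at 1.30 from 12 and 22, both with intervals above 0. Neurog2 was also higher past the fold in retinal progenitor-like cells, at 0.54 (0.40 to 0.69) from 664 and 961 UMIs. Scx was at -0.78 (-1.88 to 0.17) there. Of 6 Hes and Hey factors 4 were compared, 2 lower and 2 higher, of which 1 was higher past the fold (8.39% of all genes), with a median of 0.18. That gene was Hes5 at 0.77 (0.17 to 1.39) from 43 and 53 UMIs, with Hes1 at -0.11 (-0.44 to 0.20) and Hes6 at -0.18 (-0.50 to 0.12).

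In retinal progenitor-like cells the medians of the same lists lay closer to 0. Of 9 ligands compared 7 were lower and 2 higher, 2 of them lower past the fold, with a median of -0.13. Of all 12892 genes compared there 56.4% were lower at all, 4.62% were lower past the fold, and the median was -0.02. The 2 ligands were Tgfb1, at -0.73 (-2.26 to 0.56) from 14 and 8 UMIs, and Bmp4, with 75 UMIs (3.88 CPM) in the control library and 31 UMIs (1.62 CPM) in the mutant one, a ratio of -1.24 (-1.92 to -0.64). The medians of the receptors, SMADs, inhibitors and E proteins were 0.07, -0.06, -0.06 and 0.03, and Hes1 was 429 and 407 CPM (-0.08, -0.12 to -0.03). Of 6 tissue-specific bHLH factors compared 2 were higher and 1 lower past the fold, beside 2.63% and 4.62% of all genes, with a median of 0.03.

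The genes whose levels were most like each Id gene over the 14 classes and 2 libraries (28 values of log2(CPM + 1), among 8483 genes) were named by their Pearson correlation. For Id3 these were Fkbp9 (0.93), Yap1 (0.92), Trip6 (0.89), Wwtr1 (0.89) and Lrp4 (0.89), of which Yap1 and Wwtr1 encode the Hippo pathway effectors YAP and TAZ. For Id1 they were Prdx6 (0.86), Tgif2 (0.85), Odc1 (0.84), Cdca4 (0.81) and Itm2a (0.81). For Id2 they were Gemin2, Rnf26, Bcl2l12, Rif1 and Mtap, each at 0.90, and for Id4 1500009L16Rik (0.76), Psrc1 (0.75), Pard3b (0.74), E2f5 (0.73) and Dzip1l (0.73). Between members the correlation was 0.76 for Id2 and Id3, 0.63 for Id3 and Id4, 0.57 for Id1 and Id3, 0.51 for Id2 and Id4, 0.44 for Id1 and Id2 and 0.42 for Id1 and Id4. The points share libraries and depth, so these values are descriptions.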

How the data were processed

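The 2 libraries were made with the 10x 3′ protocol from polyA RNA, and per the labels the authors aligned and counted them with Cell Ranger 7.1.0 against mm10 and used Seurat 4.1.1. The deposited matrices hold raw UMI counts per gene and barcode, with no normalization. The matrix headers name software version 3.0.0, which differs from the labels, and whether intronic reads were counted is not given in the sources used here, so the gene counts may or may not include them.

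Barcodes with under 200 genes (5 control, 9 mutant) or over 15% mitochondrial UMIs (515 and 371) were left out, as were doublets marked by Scrublet in scanpy 1.11.5 (51, 0.924%, and 74, 1.16%). The upper limit of 2000 UMIs per cell in the study's methods was not applied, since a minority of kept barcodes lie under it (1190 and 1096). Cells were integrated and clustered with Seurat 5.3.0 in R 4.3.3 (2000 variable features, of which 1977 were used once the Id and pathway genes and Myrf were left out, 30 principal components, resolution 0.8). A cluster was named where its marker list had a mean log2 fold of at least 0.5, at least 3 markers 2-fold raised and a lead of 0.3 over the next list; these thresholds were chosen with the clusters in view. Counts were summed by class and library. Ratios add 1 UMI to each sum and have exact conditional binomial 95% intervals, shares have exact Clopper-Pearson intervals, and dorsal or ventral cells were told by 1 UMI of Tbx5 or Vax2. UMIs were counted as molecules, and with 1 library per group no test was made. List genes are named where RPE-like cells held at least 100 UMIs, and with fewer UMIs, after their values were seen, where they were past the fold in RPE-like cells (and Tgfb1 in progenitor-like cells; 1 list gene is not reported here), and like genes where all cells held at least 1000, without mitochondrial, ribosomal protein, haemoglobin and sex-linked genes. The ratio and its interval were tried on simulated Poisson counts. These hold no clumping of UMIs in single cells, so the simulation covers counting error only. The members and lists were chosen with earlier results of these data known.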

Additional observations from a re-analysis of the deposited data

Results flagged for a closer look

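Ratios of the mutant over the control library had opposite signs in different classes for 3 of the Id genes, with intervals that exclude 0 on both sides, and the difference between classes was not tested. Id1 had a log2 ratio of -1.25 in RPE-like cells and 1.22 in red blood cell-like cells, where the median of all genes was 0.40. The red blood cell-like counts are taken as free RNA, mutant RPE-like cells held no more Id1 per cell than these (0.118 and 0.125 UMIs), and the RPE-like ratio was 0.02 when cells over 20000 UMIs were left out. Id2 had -0.71 in retinal ganglion cell-like cells and 1.04 in surface ectoderm-like cells. The latter rested on 18 and 35 UMIs, and the thinned share of cells with Id2 was lower in the mutant (14.3% against 18.9%). Id3 had -1.41 in retinal ganglion cell-like cells and 1.23 in amacrine or horizontal cell-like cells (30 and 84 UMIs). In both classes the thinned shares of cells with Id3 had intervals that overlapped between the libraries. The mutant Id3 level of the ganglion cell-like cells (33.7 CPM, 28.5 to 39.5) overlapped that of red blood cell-like cells (35.4, 31.8 to 39.2).

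Id transcripts were also counted outside the named classes. Barcodes left out by the filters held Id3 at 587 CPM in the control and 560.1 in the mutant. Cluster 22, an unnamed cluster of 60 control and 63 mutant cells led by Cxcl14 and S100a6, held Id2 at 295 CPM (193 to 432) from 26 UMIs and 324 CPM (215 to 469) from 28 UMIs, above every named class. Its Id4 was 79.5 CPM (31.9 to 164) from 7 UMIs and 92.6 (40.0 to 183) from 8. Its cells had a median of 1100 UMIs and a median mitochondrial share of 0.921%.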

How the results depend on the processing

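With 1 library per genotype no replicate could be left out. No paired analysis was possible because each group has 1 library. Over the alternatives, the log2 ratio in RPE-like cells ranged from -1.94 to 0.02 for Id1 (13 settings), from -1.49 to -0.46 for Id2 (15) and from -0.82 to -0.25 for Id3 (16), below 0 in 12, 15 and 16 of them. The reversal was Id1 at 0.02 when cells over 20000 UMIs were left out (33 and 15 UMIs remaining). Values outside the counting interval were -1.49 for Id2 in female cells, and for Id3 -0.25 under a limit of 2000 UMIs, -0.82 with a mitochondrial limit of 5%, -0.65 in male cells and -0.58 with free RNA subtracted. Their causes were not tested. Leaving out barcodes shared by the libraries, subtracting free RNA and keeping cells of at least 5000 UMIs were chosen after seeing the data.

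Id1 gave no ratio in female cells (11 and 2 UMIs), under 2000 UMIs (3 and 0) or after subtraction of free RNA (49.7 and 0 left), and Id2 none under 2000 UMIs (8 and 6). Neurogenic retinal precursor-like cells went to rank 2 for Id1 with a limit of 20000 UMIs, without integration, with another total and with the mean of shares per cell, and retinal progenitor-like cells to rank 2 for Id4 with the limit of 20000 UMIs and the mean of shares. With 5 dorsal and 5 ventral genes the log2 difference was 1.32 for Id1 in the mutant, 1.07 for Id2 in the control and 1.39 for Id3 in the control. The share of RPE-like cells with Id3 was 57.5% in the control at 1500 UMIs and 69.3% in the mutant without thinning. In the other classes 157 of the recomputed ratios stayed within the counting interval and 3 moved, all of Id3 with a mitochondrial limit of 5%. Depth limits Id4 and Id1 most, since RPE-like cells held 4 and 5 UMIs of Id4 and 62 and 18 of Id1.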
